A study of Mus musculus with 4 samples.

Results

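The genes described here are 6 cytochrome P450 genes of the Cyp4 family in mouse kidney nuclei, namely Cyp4a10, Cyp4a14, Cyp4a31, Cyp4a32, Cyp4a12a and Cyp4b1. They were taken by symbol from the 25636 genes in the count matrices. They were selected on their UMI counts in proximal tubule nuclei, which were known to differ between the strains, so their strain ratios are given as a description with no test. Nuclei came from the kidney cortex of female mice: MRL/lpr at 10 weeks, C57BL/6 at 10 weeks, MRL/lpr at 6 weeks and C57BL/6 at 6 weeks, with 1 droplet-based 3′ RNA library for each. How many animals gave a library is not in the labels. MRL/lpr mice carry the lpr allele, which disables Fas, and they develop a lupus-like kidney disease. No MRL group with intact Fas was analysed here, so in every strain ratio the background, the Fas allele and the disease cannot be told apart. With 1 library per group, no difference has a replicate check, and every interval below is a 95% interval that covers counting error only.

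Cyp4 enzymes hydroxylate fatty acids at or near the terminal, omega carbon. Further oxidation turns the product into a dicarboxylic acid, which peroxisomes shorten. In the kidney the best known Cyp4a product is 20-HETE, an arachidonic acid derivative that constricts small arteries and reduces sodium uptake in the tubule. Cyp4a10 and Cyp4a14 are classical targets of PPAR alpha, the nuclear receptor that switches on fatty acid oxidation genes. The proximal tubule takes most of its energy from fatty acids.

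All 6 genes lie in 1 cluster on chromosome 4 (GRCm38, GENCODE M21), and each is annotated as protein coding. Cyp4a12a runs from 115299046 to 115332815 on the plus strand, and Cyp4a14 from 115486200 to 115496142 on the minus strand. Cyp4a10 (115518264 to 115533649), Cyp4a31 (115563649 to 115579015) and Cyp4a32 (115600969 to 115621602) follow on the plus strand. Cyp4b1 closes the cluster on the minus strand, from 115624725 to 115647723. The similarity of these genes limits what their counts can tell. The coding sequences of Cyp4a10 and Cyp4a31 are 96.6% identical, with 52 substituted bases in 1527, and that of Cyp4a32 is 97.2% identical to Cyp4a10. Cyp4a14 shares 75.6% with Cyp4a10, and Cyp4b1 60.7%.

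The stretch of 90 coding bases around the heme-binding motif, which spans the junction of exons 11 and 12, is shown because it lets the near-identical genes be told from the others by eye. Capitals mark bases that differ from Cyp4a10, all sequences run 5′ to 3′ along the coding strand, and the intron inside each interval is left out.
Cyp4a10, plus strand, chr4:115529472-115532573: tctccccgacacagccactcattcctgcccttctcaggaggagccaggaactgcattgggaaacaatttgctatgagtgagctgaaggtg
Cyp4a12a, plus strand, chr4:115328956-115331876: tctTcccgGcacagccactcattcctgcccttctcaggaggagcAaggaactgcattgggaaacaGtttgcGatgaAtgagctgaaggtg
Cyp4a14, minus strand, chr4:115487269-115489835: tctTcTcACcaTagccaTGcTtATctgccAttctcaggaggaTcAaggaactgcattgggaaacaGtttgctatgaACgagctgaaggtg
Cyp4b1, minus strand, chr4:115625186-115625692: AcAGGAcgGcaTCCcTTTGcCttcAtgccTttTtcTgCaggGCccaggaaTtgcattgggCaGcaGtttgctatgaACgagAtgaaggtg
Cyp4a31 and Cyp4a32 have the Cyp4a10 sequence in this stretch without a single difference. Cyp4a12a differs from it at 6 bases, Cyp4a14 at 16 and Cyp4b1 at 28. Over whole annotated transcripts, 30.5% of the 50-base stretches of Cyp4a10 also occur in another Cyp4 gene, against 0.245% for Cyp4a14 and 10.3% for Cyp4b1. The share is 20.1% for Cyp4a31, 46.8% for Cyp4a32 and 48.9% for Cyp4a12a, which has the near-copy Cyp4a12b. Near the 3′ end, where this chemistry reads, the last 500 stretches of Cyp4a10 and Cyp4a31 are shared at 5.40% each and those of Cyp4a14 at 0%. The annotated transcript of Cyp4a32 ends at its stop codon, and 66.6% of its last 500 stretches are shared. How reads that match several genes were treated is not given in the sources used here, so the split of counts among Cyp4a10, Cyp4a31 and Cyp4a32 is uncertain, reads may also have been lost, and counts of Cyp4a32 and Cyp4a12a are the least certain. These sequences are those of the reference annotation, and MRL/lpr sequences were not examined. Whether reads of both strains match it equally well is therefore not known.

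The libraries held between 6466973 and 7660682 UMIs (unique molecular identifiers, 1 per captured RNA molecule) in 9365 to 10182 barcodes, and 8663 to 9147 nuclei were kept in each. Kept nuclei had medians of 561 to 693 UMIs, and any 2 libraries shared 96 to 114 barcodes. Nuclei were classed by UMIs of marker genes, none of which is a Cyp4 gene. Proximal tubule-like (PT-like) nuclei numbered 5462 in MRL/lpr and 4243 in C57BL/6 at 10 weeks, and 5584 and 4006 at 6 weeks, which is 60.3% and 47.9% of kept nuclei at 10 weeks and 64.5% and 43.8% at 6 weeks. Slc34a1, the phosphate transporter of the proximal tubule, is among the markers that set the PT-like class. It stood at 6708 to 9453 CPM (UMIs of a gene scaled to the total UMIs of the class) in PT-like nuclei. In podocyte-like nuclei it stood at 458 to 718 CPM. The class rule itself makes for such a difference, so these levels are no check of the classes. PT-like nuclei with mainly early-segment markers were called S1-like, those with mainly late-segment markers S2/S3-like, and the rest were left between segments. Neither segment's markers reached 2 UMIs in 324 of these 856 nuclei in MRL/lpr and 166 of 634 in C57BL/6 at 10 weeks. At 6 weeks this held for 629 of 1111 in MRL/lpr and 140 of 508 in C57BL/6. S2/S3-like nuclei made up 10.2% of PT-like nuclei in MRL/lpr and 13.3% in C57BL/6 at 10 weeks, and 12.2% and 9.21% at 6 weeks. Slc7a13, a late-segment marker, had at most 23 UMIs in the PT-like nuclei of any library, so that segment name rests on the other markers. Slc5a12, one of the S1 markers, itself stood at 3579 CPM in MRL/lpr and 5258 CPM in C57BL/6 S1-like nuclei at 10 weeks, and at 2081 and 5625 CPM at 6 weeks.

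Most UMIs of the family lay in PT-like nuclei, which also held most UMIs of every library. PT-like nuclei held 4218305 of 5868398 kept UMIs in MRL/lpr and 3692372 of 5816334 in C57BL/6 at 10 weeks. At 6 weeks these were 4920660 of 6592845 in MRL/lpr and 3593718 of 5787376 in C57BL/6. Over the 4 libraries, PT-like nuclei held 96.6% of 7081 Cyp4a14 UMIs, 93.8% of 2587 Cyp4a10 UMIs, 95.6% of 3532 Cyp4a31 UMIs and 96.2% of 79 Cyp4a32 UMIs. They held 93.2% of 4582 Cyp4b1 UMIs, and another 3.45% lay in endothelium-like nuclei. By level, Cyp4b1 was not confined to PT-like nuclei. Its CPM in endothelium-like and PT-like nuclei were 215 and 58.0 in C57BL/6 at 10 weeks and 144 and 157 at 6 weeks. In MRL/lpr they were 190 and 368 at 10 weeks and 230 and 394 at 6 weeks. Cyp4a12a, an androgen-dependent arachidonic acid hydroxylase typical of male mouse kidney, had 45 UMIs in all, 35 of them in PT-like nuclei. That is below the 50 UMIs asked of a compared gene, so 5 of the 6 genes were compared and Cyp4a12a is given by its counts alone.

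Free RNA sets a floor under these values. In podocyte-like nuclei, which should lack the Cyp4a genes, Cyp4a14 had 1 UMI in 154 MRL/lpr nuclei and 3 UMIs in 212 C57BL/6 nuclei at 10 weeks, and 2 UMIs in 105 and 4 in 169 nuclei at 6 weeks. These counts amount to 10.1 and 29.4 CPM at 10 weeks and 35.2 and 51.3 CPM at 6 weeks. Each is far below the 95.5 to 784 CPM of the gene in PT-like nuclei of the 4 libraries. Cyp4a10 in podocyte-like nuclei had 0 UMIs in both MRL/lpr libraries, and 1 and 2 UMIs in C57BL/6 at 10 and 6 weeks.

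Cyp4a14, an inducible fatty acid omega-hydroxylase, had 403 UMIs in MRL/lpr and 2411 in C57BL/6 PT-like nuclei at 10 weeks. At 6 weeks it had 1207 in MRL/lpr and 2819 in C57BL/6. In CPM the gene stood at 95.5 against 653 at 10 weeks and 245 against 784 at 6 weeks. Both MRL/lpr libraries lay below both C57BL/6 libraries. How many compared genes separate this way was not counted. A looser condition, a strain ratio below 1 at both ages, held for 28.1% of them. The gene was 6.83-fold lower in MRL/lpr at 10 weeks (6.15 to 7.61) and 3.20-fold lower at 6 weeks (2.99 to 3.42). Among 12109 compared genes in PT-like nuclei, 4.21% lay 2-fold or more below C57BL/6 at 10 weeks, 4.22% at 6 weeks and 1.72% at both ages. Of the compared Cyp4 genes 4 did so at 10 weeks, 3 at 6 weeks and 3 at both ages, which only restates how they were chosen. Their median log2 ratio was -1.37 at 10 weeks and -1.68 at 6 weeks, and that of all compared genes 0.06 and -0.00.

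Cyp4a10, the other PPAR alpha-inducible hydroxylase, had 250 UMIs (59.3 CPM) in MRL/lpr and 858 UMIs (232 CPM) in C57BL/6 at 10 weeks. At 6 weeks the counts were 345 (70.1 CPM) in MRL/lpr and 974 (271 CPM) in C57BL/6. In CPM both MRL/lpr libraries again lay below both C57BL/6 libraries. The fold was nearly the same at both ages, 3.92-fold lower in MRL/lpr at 10 weeks (3.40 to 4.53) and 3.87-fold lower at 6 weeks (3.42 to 4.38).

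Cyp4a31, a close relative of Cyp4a10, had 468 UMIs (111 CPM) in MRL/lpr and 1060 (287 CPM) in C57BL/6 at 10 weeks, and 786 (160 CPM) and 1061 (295 CPM) at 6 weeks. It was 2.59-fold lower in MRL/lpr at 10 weeks (2.32 to 2.89) and 1.85-fold lower at 6 weeks (1.68 to 2.03), so it passed 2-fold at 10 weeks and not at 6 weeks. Its intervals lay wholly nearer 1 than those of Cyp4a10 at each age. Cyp4a32 was thin, with 11 UMIs in MRL/lpr and 22 in C57BL/6 at 10 weeks, and 9 and 34 at 6 weeks. Its strain ratio was 0.438 at 10 weeks (0.192 to 0.942) and 0.193 at 6 weeks (0.0815 to 0.412). Because the split among these near-copies is uncertain, their UMIs were also summed. Cyp4a10, Cyp4a31 and Cyp4a32 together had 729 UMIs in MRL/lpr and 1940 in C57BL/6 at 10 weeks, a ratio of 0.329 (0.302 to 0.358), and 1140 and 2069 at 6 weeks, a ratio of 0.402 (0.374 to 0.433). The sum does not depend on how reads were split among the 3 genes, but reads matching several of them may not have been counted at all, and how many is not known. The part of sequence differences between the strains in any of the Cyp4 ratios was not tested. Cyp4a12a had 16 UMIs in MRL/lpr and 4 in C57BL/6 at 10 weeks, and 9 and 6 at 6 weeks.

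Cyp4b1 ran the other way. This enzyme acts on shorter fatty acids and on foreign compounds. It had 1552 UMIs (368 CPM) in MRL/lpr and 214 (58.0 CPM) in C57BL/6 PT-like nuclei at 10 weeks. At 6 weeks it had 1940 (394 CPM) in MRL/lpr and 565 (157 CPM) in C57BL/6. Both MRL/lpr libraries were above both C57BL/6 libraries, a separation not counted over all genes. Strain ratios above 1 at both ages, a looser condition, were seen for 4039 of 12109 compared genes. The Cyp4b1 ratio was 6.35 at 10 weeks (5.50 to 7.36) and 2.51 at 6 weeks (2.28 to 2.76). Of the 5 compared Cyp4 genes it was the 1 that lay 2-fold or more above C57BL/6, as did 6.51% of all compared genes at 10 weeks, 5.21% at 6 weeks and 2.61% at both ages.

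The same directions held inside each segment. In S2/S3-like nuclei, Cyp4a14 stood at 187 CPM in MRL/lpr and 965 CPM in C57BL/6 at 10 weeks, a ratio of 0.194 (0.152 to 0.245), and its ratio at 6 weeks was 0.357 (0.308 to 0.412). In S1-like nuclei its ratios were 0.153 (0.131 to 0.177) and 0.249 (0.224 to 0.276). Cyp4a10 had ratios of 0.215 at 10 weeks and 0.235 at 6 weeks in S2/S3-like nuclei, and 0.329 and 0.225 in S1-like nuclei. Cyp4a31 at 6 weeks was the mildest of these, at 0.678 (0.551 to 0.834) in S2/S3-like and 0.452 (0.398 to 0.514) in S1-like nuclei. Cyp4b1 reached a ratio of 10.1 (6.26 to 17.2) in S2/S3-like nuclei at 10 weeks, on 162 UMIs in MRL/lpr and 19 in C57BL/6, beside 6.04 (5.08 to 7.22) in S1-like nuclei. At 6 weeks its ratio was 3.14 (2.28 to 4.41) in S2/S3-like and 2.21 (1.98 to 2.47) in S1-like nuclei. The S1 marker Slc5a12 also stood lower in MRL/lpr S1-like nuclei at both ages, and the part of marker differences within a class in these ratios was not tested.

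**Figure D1:**
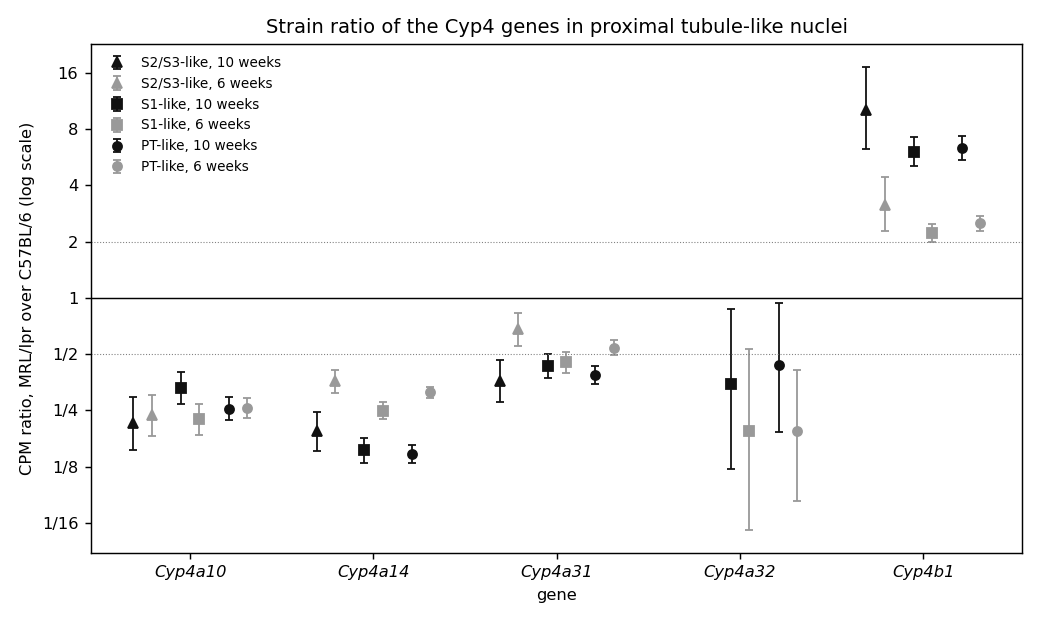
CPM ratio of MRL/lpr over C57BL/6 on a log scale for the 5 compared Cyp4 genes. Triangles are S2/S3-like, squares S1-like and circles all PT-like nuclei, black at 10 weeks and grey at 6 weeks; bars are 95% intervals of counting error, dotted lines mark 2-fold, and Cyp4a32 is not drawn in S2/S3-like nuclei, where it had fewer than 50 UMIs. The 4 Cyp4a genes lie below 1 in every class drawn and Cyp4b1 lies above 2.

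The age ratios differed from member to member. In MRL/lpr, Cyp4a14 was 2.57-fold lower at 10 than at 6 weeks (2.29 to 2.88), while in C57BL/6 it was 1.20-fold lower (1.14 to 1.27). In C57BL/6, Cyp4b1 had a ratio of 10 over 6 weeks of 0.369 (0.313 to 0.432), against 0.933 (0.872 to 0.998) in MRL/lpr. Past 2-fold, 1 of the 5 compared Cyp4 genes was lower at 10 weeks in MRL/lpr, Cyp4a14, beside 2.71% of all compared genes. In C57BL/6 it was again 1 gene, Cyp4b1, beside 2.82%. Cyp4a10 had ratios of 0.845 (0.715 to 0.998) in MRL/lpr and 0.857 (0.781 to 0.941) in C57BL/6. Those of Cyp4a31 were 0.695 (0.618 to 0.780) in MRL/lpr and 0.972 (0.892 to 1.06) in C57BL/6. The age ratios use the same libraries as the strain ratios, and the difference between strains in the age ratio was not tested.

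Markers of time of day differed between the libraries beside these values. Clock genes were set as a list because many kidney transcripts follow the time of day, and 16 of its 17 genes were compared. Past 2-fold, 5 were higher and 5 lower in MRL/lpr at 10 weeks, beside 6.51% and 4.21% of all compared genes. At 6 weeks 3 were higher and 2 lower, beside 5.21% and 4.22%. None of the list passed 2-fold in the same direction at both ages. Named after their values were seen, Dbp, a clock-driven transcription factor gene, had 272 UMIs in MRL/lpr and 30 in C57BL/6 at 10 weeks, and 57 and 48 at 6 weeks. Arntl, the core clock activator also called Bmal1, had 129 UMIs in MRL/lpr and 511 in C57BL/6 at 10 weeks, and 793 and 281 at 6 weeks. The list's members with most UMIs, Tef and Hlf, had strain ratios of 1.00 and 0.658 at 10 weeks and 0.554 and 1.02 at 6 weeks. The strain ratio of Arntl was below 1 at 10 weeks and above 1 at 6 weeks. The hour of collection is not in the labels, and the part of time of day in the Cyp4 ratios was not tested.

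The lower Cyp4a14 count in MRL/lpr went with fewer nuclei with the RNA and with fewer molecules per positive nucleus. At such low counts a lower mean by itself gives both, so they are not separate features. Each nucleus was thinned to 300 UMIs, which left out 112 and 70 shallower PT-like nuclei of MRL/lpr and C57BL/6 at 10 weeks, and 0 and 25 at 6 weeks. A Cyp4a14 UMI was then seen in 2.82% of MRL/lpr and 15.8% of C57BL/6 PT-like nuclei at 10 weeks, and in 6.16% and 16.6% at 6 weeks. Unthinned the shares were 6.41% and 31.8% at 10 weeks, and 14.5% and 34.0% at 6 weeks. Thinned podocyte-like nuclei gave 0.658% in MRL/lpr and 0.493% in C57BL/6 at 10 weeks, and 1.90% and 0% at 6 weeks, where 0 of 162 nuclei allows up to 1.85%. The nuclei thinned had median depths of 750 and 828 UMIs in PT-like and 605.5 and 452 in podocyte-like nuclei at 10 weeks, and 791 and 858, and 511 and 442, at 6 weeks. Thinned Cyp4b1 shares of PT-like nuclei ran the opposite way, with 9.63% in MRL/lpr and 1.68% in C57BL/6 at 10 weeks, and 10.9% and 4.32% at 6 weeks. Podocyte-like nuclei gave Cyp4b1 shares of 0.658% in MRL/lpr and 0% in C57BL/6 at 10 weeks, where 0 of 203 nuclei allows up to 1.48%, and 0.952% and 0.617% at 6 weeks. In CPM, unthinned, Cyp4b1 in C57BL/6 at 10 weeks stood at 58.0 (50.5 to 66.3) in PT-like nuclei, and its 0 UMIs in podocyte-like nuclei allow up to 29.4.

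Molecules per nucleus, counted without thinning, were uneven as well. No MRL/lpr PT-like nucleus at 10 weeks held more than 3 Cyp4a14 UMIs, against as many as 10 in C57BL/6, and at 6 weeks the highest counts were 8 and 10. Nuclei with at least 2 Cyp4a14 UMIs held 24.3% of all its UMIs in MRL/lpr and 68.2% in C57BL/6 at 10 weeks, and 54.1% and 77.1% at 6 weeks. For Cyp4b1 the same shares were 42.0% in MRL/lpr and 13.1% in C57BL/6 at 10 weeks, and 47.0% and 30.3% at 6 weeks. Of the PT-like nuclei with a Cyp4b1 UMI, 279 of 1179 in MRL/lpr and 14 of 200 in C57BL/6 held 2 or more at 10 weeks, and 391 of 1419 and 76 of 470 at 6 weeks, so single molecules were the more common in every library.

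Along the tubule 3 Cyp4a genes were higher toward the later segments, and Cyp4b1 showed no such common direction. Cyp4a10 was higher in S2/S3-like than in S1-like nuclei in every library. It had 101 CPM in S2/S3-like and 46.9 CPM in S1-like nuclei of MRL/lpr at 10 weeks, a ratio of 2.16 (1.51 to 3.04), and 472 against 142 CPM in C57BL/6, a ratio of 3.31 (2.81 to 3.90). At 6 weeks its ratios were 3.67 (2.79 to 4.82) in MRL/lpr and 3.52 (2.98 to 4.13) in C57BL/6. Cyp4a14 had S2/S3-like over S1-like ratios of 2.77 in MRL/lpr and 2.19 in C57BL/6 at 10 weeks, and 3.72 and 2.60 at 6 weeks. Cyp4a31 had 2.03 and 2.43 at 10 weeks, and 3.14 and 2.10 at 6 weeks. These 3 genes of the 5 compared were past 2-fold toward S2/S3-like nuclei in all 4 libraries, as were 1.73% of 11808 genes compared between segments. Under the processing alternatives the ratio of Cyp4a31 was as low as 1.89 in MRL/lpr at 10 weeks and 1.95 in C57BL/6 at 6 weeks, and that of Cyp4a10 as low as 1.97 in MRL/lpr at 10 weeks. Cyp4b1 had ratios of 1.06 (0.896 to 1.26) in MRL/lpr and 0.637 (0.373 to 1.03) in C57BL/6 at 10 weeks, and 1.21 (1.05 to 1.39) and 0.853 (0.613 to 1.16) at 6 weeks. Of these, the interval of MRL/lpr at 6 weeks alone left out 1.

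**Figure D2:**
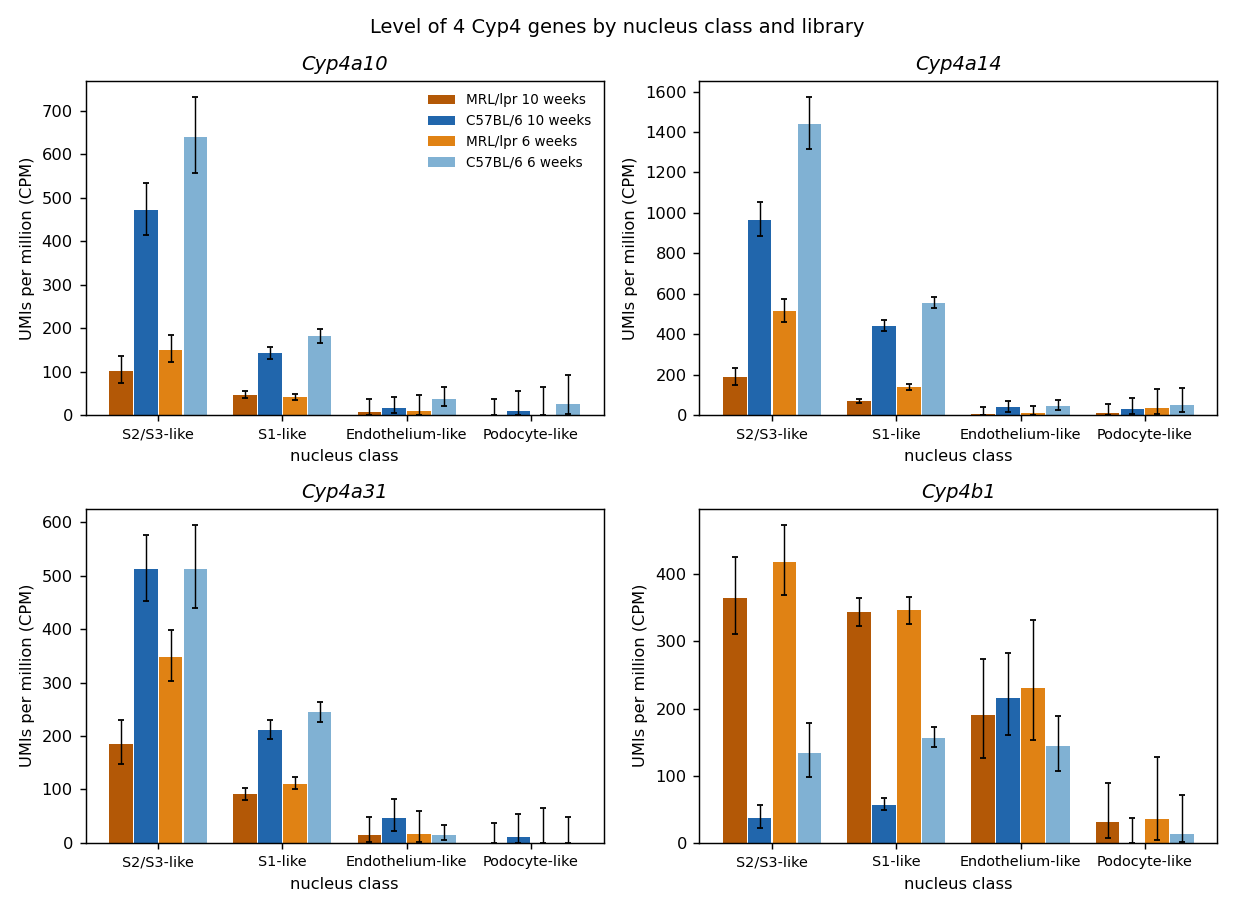
CPM of 4 Cyp4 genes (one panel each, scales differ) in S2/S3-like, S1-like, endothelium-like and podocyte-like nuclei of the 4 libraries, with 95% Poisson intervals. Cyp4a10, Cyp4a14 and Cyp4a31 bars are tallest in S2/S3-like nuclei and, in both segments, lower in MRL/lpr (orange) than in C57BL/6 (blue). Cyp4b1 bars are taller in MRL/lpr in both segments, and in endothelium-like nuclei their intervals overlap between the strains.

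A finer ordering used the share of S2/S3 markers among all segment marker UMIs of a nucleus, in 5 steps, over nuclei with at least 4 such UMIs. Cyp4a10 was lowest at the S1 end and highest at the S2/S3 end in all 4 libraries, with overlapping intervals for the last 2 steps. It stood at 22.3 CPM in the lowest step and 108 CPM in the highest in MRL/lpr at 10 weeks, and at 85.3 and 499 CPM in C57BL/6. In MRL/lpr at 6 weeks the lowest step had 24.9 CPM. Its 0 UMIs in MRL/lpr podocyte-like nuclei allow up to 30.3 CPM at 10 weeks and 52.9 CPM at 6 weeks. The lowest step of both MRL/lpr libraries therefore cannot be told from free RNA. Cyp4a14 had 180 and 185 CPM in the last steps of MRL/lpr at 10 weeks, which do not differ beyond their intervals. In C57BL/6 it peaked in the step from 40 to 60%, with 1277 CPM at 10 weeks and 1753 CPM at 6 weeks. In the last step there it had 977 CPM at 10 weeks and 1439.5 CPM at 6 weeks. Cyp4b1 was highest in the middle, with 485 CPM in the step from 20 to 40% against 367 CPM in the last step of MRL/lpr at 10 weeks, and 531 CPM in the step from 40 to 60% against 442 CPM at 6 weeks, though these intervals overlap at both ages. Nuclei left between segments by the class rule had Cyp4b1 at 485 CPM in MRL/lpr at 10 weeks and 558 CPM at 6 weeks, above the S1-like 343 and 346 CPM. Many of these nuclei had too few segment marker UMIs to be placed, so that class is not a position along the tubule.

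**Figure D3:**
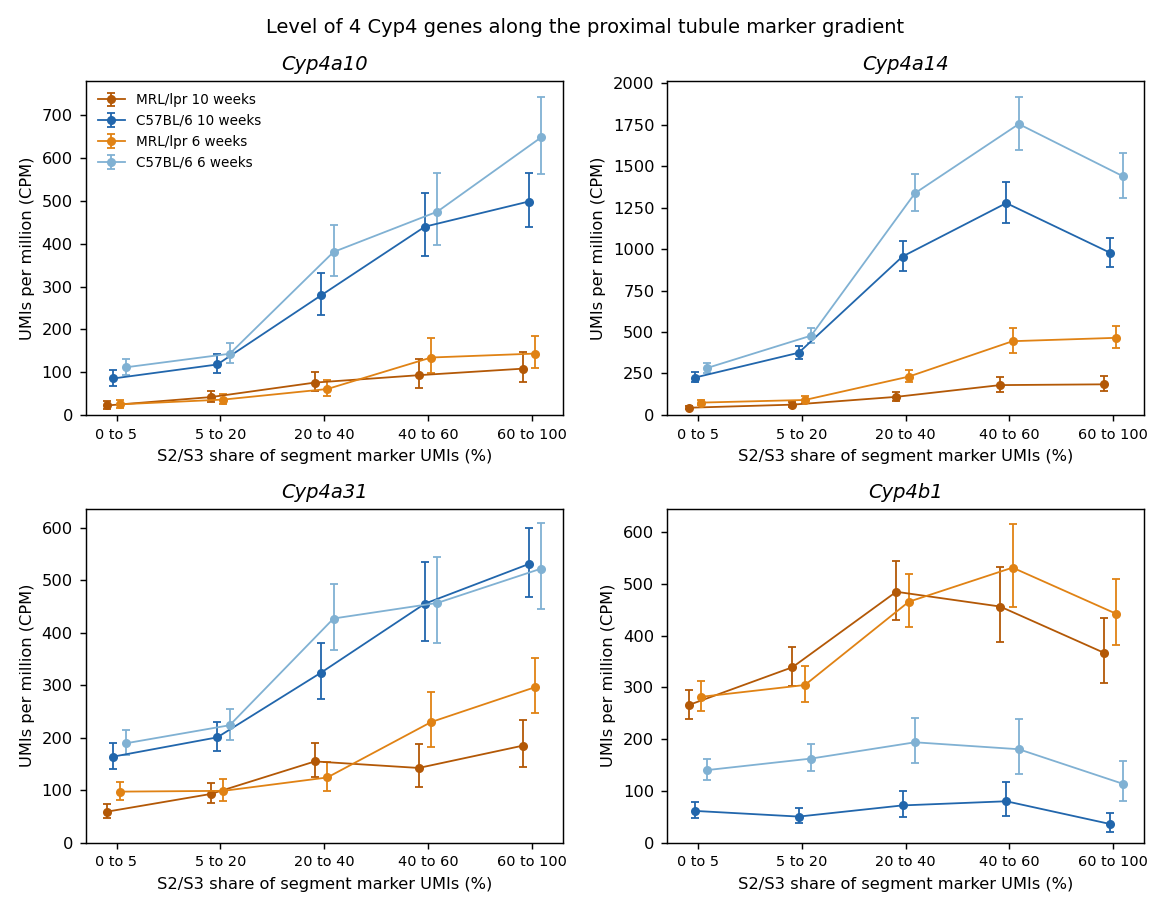
CPM of 4 Cyp4 genes against the S2/S3 share of segment marker UMIs of PT-like nuclei, in 5 steps from S1-like (left) to S2/S3-like (right), with 95% Poisson intervals. Cyp4a10 and Cyp4a31 are highest in the last step, Cyp4a14 in C57BL/6 in the step before it, and Cyp4b1 in MRL/lpr in the third or the fourth step.

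Outside the proximal tubule, Cyp4b1 stood apart from the Cyp4a genes in the endothelium. Endothelium-like nuclei held 28 Cyp4b1 UMIs (190 CPM) in MRL/lpr and 52 (215 CPM) in C57BL/6 at 10 weeks, and 28 (230 CPM) and 50 (144 CPM) at 6 weeks. Cyp4a14 had 1 UMI in MRL/lpr and 9 in C57BL/6 endothelium-like nuclei at 10 weeks, and 1 and 16 at 6 weeks. Among endothelium-like nuclei with no UMI of any proximal tubule marker, Cyp4b1 was at 190 CPM in MRL/lpr and 212 CPM in C57BL/6 at 10 weeks, and at 172 and 145 CPM at 6 weeks. The same nuclei held 1 Cyp4a14 UMI in MRL/lpr and 4 in C57BL/6 at 10 weeks, and 0 and 10 at 6 weeks. This filter therefore cannot be taken to remove all free RNA. In podocyte-like nuclei Cyp4b1 had 3 UMIs in MRL/lpr and 0 in C57BL/6 at 10 weeks, and 2 and 1 at 6 weeks. The endothelium-like over PT-like ratio was 3.72 (2.69 to 5.05) in C57BL/6 at 10 weeks, and 0.516 (0.341 to 0.748) in MRL/lpr. At 6 weeks it was 0.584 (0.387 to 0.846) in MRL/lpr and 0.914 (0.670 to 1.22) in C57BL/6. The strain ratio in endothelium-like nuclei was 0.880 (0.535 to 1.42) at 10 weeks, an interval wholly below that of PT-like nuclei. At 6 weeks it was 1.60 (0.971 to 2.59), which overlaps the PT-like interval of 2.28 to 2.76. The difference between the classes was not tested.

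Other tubule classes held few Cyp4 UMIs. In distal convoluted and connecting tubule-like nuclei Cyp4a14 was at 8.84 CPM in MRL/lpr and 31.1 CPM in C57BL/6 at 10 weeks, and at 9.06 and 62.0 CPM at 6 weeks. All 4 levels lie inside the intervals of its podocyte-like levels. In MRL/lpr the Cyp4a14 levels of S2/S3-like and between-segment nuclei did not differ beyond their intervals, at 187 and 166 CPM at 10 weeks and 514 and 470 CPM at 6 weeks, and S1-like nuclei came next. In C57BL/6 they were highest between segments, at 1339.9 CPM at 10 weeks and 1689 CPM at 6 weeks, then in S2/S3-like nuclei, whose interval just overlaps at 6 weeks, and then in S1-like nuclei. Many between-segment nuclei had too few segment marker UMIs to be placed, so the orders given here are not positions along the tubule. For Cyp4b1 the order in MRL/lpr was between segments, S2/S3-like, S1-like and endothelium-like at both ages, with overlapping intervals for S2/S3-like and S1-like nuclei at 10 weeks and for S1-like and endothelium-like nuclei at 6 weeks. In C57BL/6 at 10 weeks endothelium-like nuclei were highest, and at 6 weeks the intervals of all these classes overlapped. In fibroblast-like, mural-like and immune-like nuclei, no member had more than 2 UMIs in any library. These classes were small, with 31 to 160, 13 to 33 and 21 to 61 nuclei per library, so absence cannot be read from this. In the 13 mural-like nuclei of C57BL/6 at 10 weeks, 0 UMIs allows up to 731 CPM.

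Whether Cyp4a10 and Cyp4a14 molecules shared nuclei was looked at within segments, after thinning to 300 UMIs. Of S1-like nuclei of MRL/lpr, 5.17% with a Cyp4a10 UMI and 2.00% without one held a Cyp4a14 UMI at 10 weeks, the first from 3 of 58 nuclei, and 15.6% with and 3.52% without at 6 weeks. In C57BL/6 the shares were 22.2% with and 10.1% without at 10 weeks, and 25.3% with and 10.9% without at 6 weeks. The share was higher with a Cyp4a10 UMI in each of the 4 libraries, though the few nuclei in MRL/lpr at 10 weeks leave that difference within counting error. In S2/S3-like nuclei of C57BL/6 the shares were closer, with 26.7% and 22.5% at 10 weeks, and at 6 weeks the share without (30.9%) was above the share with (28.1%). Cyp4b1 in S1-like nuclei with and without a Cyp4a14 UMI was at 12.3% and 8.80% in MRL/lpr and at 1.90% and 1.38% in C57BL/6 at 10 weeks, and at 12.9% and 9.75% in MRL/lpr and 4.11% and 4.47% in C57BL/6 at 6 weeks. The intervals with and without overlapped in each of the 4 libraries.

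The genes whose pattern was most like each member's were ranked by the root mean square difference of centred log2(CPM + 10) over 8 values, S1-like and S2/S3-like nuclei of the 4 libraries, among 9405 genes. The values share libraries and depth, so this is a description. For Cyp4a10 the nearest was Cyp4a14 (0.414), then Hsd3b3, a steroid dehydrogenase gene (0.431), Erbb4, Nudt19 and Slc38a3. For Cyp4a14 the nearest was Angptl4, a lipase inhibitor gene and PPAR alpha target (0.387), followed by Cyp4a10, Cyp4a31, Nudt19, a peroxisomal coenzyme A hydrolase gene, and Ehhadh, a peroxisomal beta-oxidation gene. Cyp4a31 ranked 7 for Cyp4a10. For Cyp4b1 the nearest were Nat8f2 (0.489), Scpep1os, Trim35, Mcmdc2 and Rnls, and Cyp4b1 ranked 9346 from Cyp4a10. With a pseudocount of 1 Cyp4a14 stayed nearest to Cyp4a10, but Cyp4a10 (0.429) came before Angptl4 (0.538) for Cyp4a14, and Cyb561d2 (0.394) was nearest to Cyp4b1.

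Several PPAR alpha targets were lower in MRL/lpr, as the Cyp4a genes were. This list was chosen with earlier results of these data known, and the part of PPAR alpha in the Cyp4 ratios was not tested. Of 30 listed genes 28 were compared in PT-like nuclei, and past 2-fold 6 were lower and 0 higher in MRL/lpr at both ages. Of all compared genes, 1.72% were lower and 2.61% higher past 2-fold at both ages. The median log2 ratio of the list was -0.58 at 10 weeks and -0.44 at 6 weeks, beside 0.06 and -0.00 for all compared genes, and 17 of the 28 were below 1 at both ages, as were 28.1% of all compared genes. Angptl4 had 13 UMIs in MRL/lpr and 168 in C57BL/6 at 10 weeks, and 69 and 366 at 6 weeks. Its ratio of 10 over 6 weeks was 0.220 in MRL/lpr and 0.447 in C57BL/6.

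Other genes of the list showed smaller or thinner differences. Vnn1, a pantetheinase gene, was 4.51-fold lower in MRL/lpr at 10 weeks (3.36 to 6.14) and 3.47-fold lower at 6 weeks (2.71 to 4.48). Acox2, a peroxisomal oxidase of branched-chain substrates, was 2.74-fold (2.32 to 3.26) and 4.13-fold (3.36 to 5.11) lower. Pdk4, which restrains glucose oxidation, was 5.38-fold (3.16 to 9.68) and 2.27-fold (1.40 to 3.73) lower. Fabp1, a fatty acid binding protein gene, had 2 UMIs in MRL/lpr and 33 in C57BL/6 at 10 weeks, a ratio of 0.0530 (0.00617 to 0.207), and 5 and 23 at 6 weeks. The receptor gene Ppara had a ratio of 1.28 (1.21 to 1.34) at 10 weeks and 0.676 (0.645 to 0.709) at 6 weeks. Its coactivator gene Ppargc1a had 1.19 and 0.745.

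**Figure D4:**
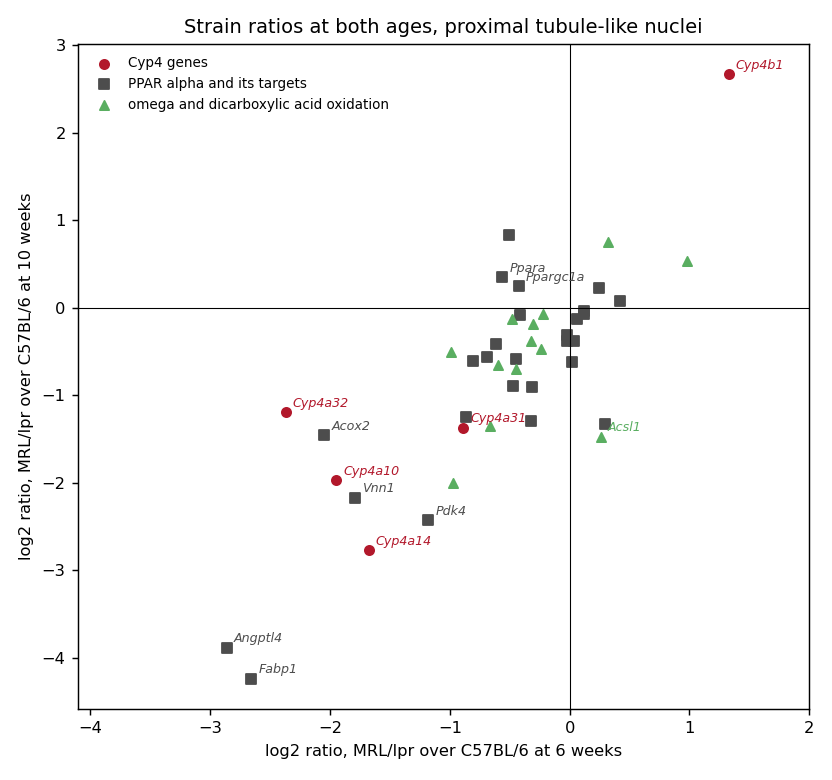
Log2 CPM ratio of MRL/lpr over C57BL/6 in PT-like nuclei at 6 weeks (horizontal) and 10 weeks (vertical), 1 point per gene shown, for the Cyp4 genes (circles), PPAR alpha and its targets (squares) and enzymes of omega and dicarboxylic acid oxidation (triangles). Cyp4a10, Cyp4a14 and Cyp4a32 lie at the lower left with Acox2, Vnn1 and Pdk4, Angptl4 and Fabp1 lie further out, and Cyp4b1 is the 1 drawn gene past 2-fold at both ages on the upper right.

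Enzymes that oxidise the omega-hydroxy product further were mostly somewhat lower in MRL/lpr. Of 16 listed genes 14 were compared, 11 of them were below 1 at both ages, against 28.1% of all compared genes, and none passed 2-fold in either direction at both ages. Their median log2 ratio was -0.42 at 10 weeks and -0.39 at 6 weeks. At 10 weeks 3 genes were lower past 2-fold in MRL/lpr, beside 4.21% of all compared genes. Named after their values were seen, they were Acsl1, Ehhadh and Aldh1a1. Acsl1, which activates long-chain fatty acids, had 957 UMIs in MRL/lpr and 2325 in C57BL/6 at 10 weeks, a ratio of 0.360, and 2410 and 1470 at 6 weeks, a ratio of 1.20. Ehhadh had 466 and 1045 UMIs at 10 weeks and 824 and 953 at 6 weeks.

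The other Cyp4 genes and the electron donors of P450 enzymes were mostly too thin to compare. Of 19 listed genes 18 were in the matrices and 7 were compared, and none passed 2-fold in the same direction at both ages. Their median log2 ratio was 0.23 at 10 weeks and -0.16 at 6 weeks. Cyb5a, the microsomal cytochrome b5 gene, had a ratio of 0.799 at 10 weeks and 1.01 at 6 weeks, and Cyb5b, its mitochondrial outer membrane form, 0.937 and 0.894. Of 12 compared eicosanoid enzymes none passed 2-fold in the same direction at both ages, with medians of -0.29 at 10 weeks and -0.05 at 6 weeks. Cyp2j5, an arachidonic acid epoxygenase gene of the proximal tubule, had ratios of 0.805 and 0.855, and Cyp2j11 1.00 and 0.982.

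Sex-biased kidney genes were read because several Cyp4 genes depend on sex hormones. Of 9 compared male-biased genes, 1 passed 2-fold in the same direction at both ages, Cyp2d9, with 12 UMIs in MRL/lpr and 80 in C57BL/6 at 10 weeks, and 18 and 67 at 6 weeks. Of all compared genes, 1.72% were lower past 2-fold at both ages. The list's medians were -0.30 at 10 weeks and -0.18 at 6 weeks. Kap, an androgen-regulated gene, had 1961 UMIs in MRL/lpr and 3193 in C57BL/6 at 10 weeks, and 4814 and 1944 at 6 weeks, so its strain ratio changed side between the ages. Of 6 compared female-biased genes none passed 2-fold in the same direction at both ages, with medians of -0.35 and 0.66, and Prlr and Aadac had ratios of 1.23 and 1.49 at 10 weeks and 1.44 and 1.51 at 6 weeks. The part of hormonal state in the Cyp4 ratios was not tested.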

How the data were processed

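Each library was deposited as a matrix of UMI counts for every gene in every barcode. The file headers name Cell Ranger 5.0.0, whereas the submitters' processing notes name version 3.1.0. No source used here gives the genome build, the counting of introns or the rule for calling barcodes. The authors' nuclei were isolated on an iodixanol gradient and read from the 3′ end, per the labels' protocols.

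Barcodes with at least 200 genes and at most 10% mitochondrial UMIs were kept. Scrublet doublets (scanpy 1.11.5) were left out, 427 in MRL/lpr and 751 in C57BL/6 at 10 weeks and 701 and 863 at 6 weeks. In MRL/lpr at 6 weeks the automatic threshold marked none, so the highest scores up to the expected doublet rate were left out there. A class needed at least 3 UMIs over 2 of its markers and 2 times those of any other class. A segment needed 2 UMIs and 2 times the other segment. CPM were formed from UMIs summed by class and library. A gene was compared in a class where it had 50 UMIs or more, all 4 libraries together. Ratios carry conditional exact binomial, CPM exact Poisson and shares Clopper-Pearson 95% intervals. For counts of genes past 2-fold, 0 was set at 3 UMIs. What a count of 0 allows was taken as 3 UMIs for a CPM and 3 nuclei for a share. Such a bound is lower than the upper limit of the intervals named here. No test was run, since each group is 1 library. UMIs of 1 library share their source, so intervals cover counting error only.

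All members were described. Of each list, genes at least 2-fold apart in the same direction at both ages and the 2 with most UMIs were named, except some genes that are not reported here. Lists were PPAR alpha targets, omega and dicarboxylic acid oxidation, other Cyp4 genes and redox partners, eicosanoid enzymes, male-biased, female-biased and clock genes. The members and lists were chosen with earlier results of these data known. Sequences and positions are from GENCODE M21, with coding sequences aligned in Biopython 1.88. Calls and intervals were tried on simulated class sums drawn as Poisson counts, the spread that the intervals assume. UMIs clumped within nuclei were not simulated, so this does not check the intervals for such data.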

Additional observations from a re-analysis of the deposited data

Results flagged for a closer look

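The screen covered the Cyp4 genes, the genes named by rule from the lists and a few list genes added after their values were seen. A gene is listed where the interval of a ratio lay above 1 in one group and below 1 in the other. Other genes, such as the marker Slc5a12, were not screened. None of the Cyp4 genes was listed, and the differences were not tested. All values are from PT-like nuclei, and strain ratios are MRL/lpr over C57BL/6.

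Acsl1 had strain ratios of 0.360 at 10 weeks and 1.20 at 6 weeks, and ratios of 10 over 6 weeks of 0.463 in MRL/lpr and 1.54 in C57BL/6. Kap had strain ratios of 0.538 and 1.81, and age ratios of 0.475 in MRL/lpr and 1.60 in C57BL/6. The receptor gene Ppara lay the other way, with strain ratios of 1.28 at 10 weeks and 0.676 at 6 weeks and age ratios of 1.33 in MRL/lpr and 0.703 in C57BL/6. Ppargc1a had strain ratios of 1.19 and 0.745, and age ratios of 1.37 and 0.858.

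Clock genes gave the widest swings among the genes listed here. Nr1d1, a clock repressor gene, had strain ratios of 5.99 at 10 weeks and 0.198 at 6 weeks, and age ratios of 15.3 in MRL/lpr and 0.507 in C57BL/6. Arntl had strain ratios of 0.221 and 2.06, and age ratios of 0.190 and 1.77. Npas2, which pairs with Arntl, had strain ratios of 0.121 and 2.31, and age ratios of 0.158 and 3.02. Dbp had age ratios of 5.57 in MRL/lpr and 0.608 in C57BL/6, and Hlf 0.861 and 1.33. Nr1d1, Arntl, Npas2 and Dbp were named after their values were seen.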

How the results depend on the processing

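No paired analysis was possible because the labels give no replicate numbers and each group is 1 library. Over 11 alternatives (10 planned, and free RNA subtraction from podocyte-like nuclei, chosen after seeing the data), 379 of 395 values of Cyp4 ratios and gene counts stayed within the interval of the ratio or within 1.5 times the count, and every strain ratio kept its side of 1 wherever it had a value. Alternatives that change only the segment rule or its markers leave the PT-like nuclei as they were. PT-like ratios under those alternatives stayed by construction and are part of the 379. At 10 weeks the strain ratio of Cyp4a14 lay between 0.137 and 0.149 and that of Cyp4a10 between 0.245 and 0.267. The age ratios of Cyp4a31 in C57BL/6 (at most 1.01) and Cyp4b1 in MRL/lpr crossed 1 under 1 alternative each. With free RNA subtracted from podocyte-like and endothelium-like nuclei, the strain ratio of Cyp4b1 at 6 weeks was 6.03 and its age ratio in MRL/lpr 1.07, its S2/S3-like over S1-like ratios at 6 weeks were 1.41 in MRL/lpr and 0.376 in C57BL/6, and the age ratio of Cyp4a31 in C57BL/6 was 0.889. That correction uses endothelium-like nuclei, which held Cyp4b1 UMIs, and for C57BL/6 at 10 weeks it gave Cyp4b1 no value. From podocyte-like nuclei alone, Cyp4a14 had a strain ratio of 0.286 and an S2/S3-like over S1-like ratio of 4.65 in MRL/lpr at 6 weeks. Counts of genes past 2-fold rise as thinner genes are let in. With a minimum of 20 UMIs, 1209 genes were higher in MRL/lpr at 10 weeks, 1058 were higher at 6 weeks and 804 were lower at 6 weeks. With no minimum 1544 were higher and 996 lower at 10 weeks, 1388 and 1081 at 6 weeks, and 524 and 341 at both ages. Of the other values 35 of 49 moved, mostly shares of nuclei, which grow with depth. With a pseudocount of 1, 3 of the 5 genes most like Cyp4a10, 3 of those for Cyp4a14 and 2 of those for Cyp4b1 remained. Counts under 50 UMIs leave Cyp4a32 and Cyp4a12a with wide intervals.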

Other observations

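Endothelium-like nuclei were split by markers of glomerular, peritubular and large vessel endothelium, a list chosen after the Cyp4b1 values were seen. Nuclei with mainly peritubular markers held 17 Cyp4b1 UMIs in MRL/lpr and 41 in C57BL/6 at 10 weeks, and 20 and 40 at 6 weeks. Glomerular ones held 6 and 4 UMIs at 10 weeks, from 45 and 31 nuclei, and 3 and 2 at 6 weeks, from 12 and 40 nuclei. In CPM the peritubular nuclei stood at 153 in MRL/lpr and 206 in C57BL/6 at 10 weeks, and at 194 and 138 at 6 weeks. The glomerular nuclei stood at 411 and 457 CPM at 10 weeks, with intervals of 151 to 894 and 124 to 1170, which overlap those of the peritubular nuclei. Large vessel nuclei held at most 1 Cyp4b1 UMI in any library.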
